A study of Homo sapiens and Mus musculus with 19 samples.

Results

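Autosomal GATA factor genes, GATA2, GATA3, GATA4, GATA5 and GATA6, were compared between a human embryonic stem cell line and a human liver tumour line by the methylation of their CCGG sites. These 5 of the 19122 autosomal protein-coding genes of the RefSeq table were chosen by name. Each was taken with 5000 bp before its transcription start and 5000 bp past its annotated end. The 5 windows held 807 of the 2317745 CCGG sites listed in the human tables. At least 1 tag in any library of 1000 cells was found at 273 of the 807 sites. H1ES is an embryonic stem cell line and HepG2 is a line grown from a liver tumour. Each line was represented by 2 libraries of 1000 cells (H1ES_1000cells and HepG2_1000cells) and 5 libraries of 1 cell each (H1ES_sc and HepG2_sc). No treatment, time point or genetic change is named in the labels for either line, and each line is 1 genotype. The labels name no separate cultures. A p-value therefore reflects no more than tag counting and how far the libraries of a line lie apart, be it technical or not. The fits estimate that spread partly from all genes or sites tested, not from each gene alone. In a library of 1000 cells, fewer cells with an unmethylated site and fewer unmethylated copies per cell cannot be told apart.

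GATA factors are zinc finger transcription factors that bind DNA at the letters GATA. GATA2 and GATA3 belong to the branch known from blood, lymphoid and trophoblast cells: GATA2 maintains blood stem and progenitor cells, and GATA3 directs T cell and luminal epithelial fates. GATA4, GATA5 and GATA6 belong to the branch known from heart, gut and liver, where GATA4 and GATA6 take part in the formation of endoderm and of the early liver. Start regions of developmental regulators are typically rich in CpG and free of methylation in stem cells, whereas DNA outside such regions is mostly methylated. In the assay, each tag records whether a CCGG site was unmethylated, carried 5-methylcytosine (5mC) or carried 5-hydroxymethylcytosine (5hmC), and a share below is the percentage of a region's tags that are of 1 kind.

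The sequences upstream of 4 transcription starts are shown to mark the CCGG sites to which the assay is limited there, whether or not tags were found on them. GATA2 has 2 listed starts and GATA3 has 6, and distances below are counted from the first of them along the gene. Each sequence is the 250 bases before a start on the gene's own strand, from the RefSeq promoter table for GRCh38.p14, with CCGG in capitals. The GATA2 sequence is chr3:128493202-128493451 (minus strand), before the first start. The GATA3 sequences are all on the plus strand: chr10:8050986-8051235 before the start at 5903 bp, chr10:8053391-8053640 before the start at 8308 bp, and chr10:8060207-8060456 before the start at 15124 bp.
GATA2: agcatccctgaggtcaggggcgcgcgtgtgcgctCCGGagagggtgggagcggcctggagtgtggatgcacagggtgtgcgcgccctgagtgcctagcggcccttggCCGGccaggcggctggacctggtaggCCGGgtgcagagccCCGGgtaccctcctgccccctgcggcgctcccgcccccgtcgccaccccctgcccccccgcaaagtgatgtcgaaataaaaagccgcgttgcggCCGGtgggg
GATA3, start at 5903 bp: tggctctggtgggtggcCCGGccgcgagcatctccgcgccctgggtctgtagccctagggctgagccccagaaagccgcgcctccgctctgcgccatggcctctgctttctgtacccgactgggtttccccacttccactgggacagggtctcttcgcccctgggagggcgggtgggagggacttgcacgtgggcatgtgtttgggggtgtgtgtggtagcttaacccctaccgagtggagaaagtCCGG
GATA3, start at 8308 bp: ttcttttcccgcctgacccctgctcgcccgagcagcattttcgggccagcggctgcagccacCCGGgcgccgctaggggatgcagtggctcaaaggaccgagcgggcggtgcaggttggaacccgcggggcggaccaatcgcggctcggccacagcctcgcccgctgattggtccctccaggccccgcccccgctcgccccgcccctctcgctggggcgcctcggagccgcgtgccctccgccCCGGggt
GATA3, start at 15124 bp: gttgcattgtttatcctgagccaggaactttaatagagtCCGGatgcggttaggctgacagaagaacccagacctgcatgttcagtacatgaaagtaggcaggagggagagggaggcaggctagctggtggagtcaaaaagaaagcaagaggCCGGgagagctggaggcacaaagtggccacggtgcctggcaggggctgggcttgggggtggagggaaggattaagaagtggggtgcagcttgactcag

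The GATA2 sequence holds 5 CCGG sites, and no tag fell on any of them in the libraries of 1000 cells or in the single cells. Before the GATA3 start at 5903 bp, 2 CCGG sites carried 6 unmethylated tags of 6 and 6 of 7 in the H1ES libraries, and 4 of 4 and 4 of 5 in the HepG2 libraries. Before the start at 15124 bp, 2 CCGG sites carried 9 unmethylated tags of 9 and 2 of 4 in H1ES, and 2 of 2 and 5 of 5 in HepG2. These promoter sites were mostly read as unmethylated in both lines. Before the start at 8308 bp, tags were fewer, with 2 of 2 and 1 of 1 unmethylated in H1ES and 0 of 1 and 1 of 3 in HepG2. Upstream of GATA6, the sites carried 5 of 5 and 1 of 1 in H1ES and 2 of 3 and 3 of 3 in HepG2. CCGG is present in 63.1% of the 35116 windows of the promoter table, which run from 250 bases before a start to 50 bases after it. The letters AGATAA, also with T in place of the first A or G in place of the last A, on either strand, are present in 25.0% of those windows and in 0 of the 9 listed for GATA2, GATA3 and GATA6.

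Libraries of 1000 cells held 4911898 to 6644517 tags. Over all autosomal human sites, 4.24% and 4.73% of tags were unmethylated in the H1ES libraries and 38% and 39.1% in the HepG2 libraries. Among start regions with at least 5 tags in every library, those of 5 of 6 liver marker genes tested had a higher unmethylated share in HepG2, and 3 of 7 stem cell marker genes tested had a lower one (edgeR quasi-likelihood test, Benjamini-Hochberg adjusted p under 0.05). Over all start regions tested, 34.3% were higher and 3.52% lower. For example, the start region of POU5F1, a core pluripotency factor, was 84.3% ± 8.08 (SD, n = 2) unmethylated in H1ES and 5.21% ± 1.47 in HepG2, whereas that of HNF4A, a hepatocyte regulator, was 1.47% ± 2.08 and 73.0% ± 2.82. Of the markers of other cell types, 1 of 3 blood, 1 of 3 fibroblast and 2 of 3 endothelial genes tested were higher in HepG2 and none was lower, too few to set apart from the share over all start regions.

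On GRCh38, GATA2 lies at chr3:128479422-128493201 on the minus strand, GATA3 at chr10:8045333-8075198 on the plus strand, and GATA6 at chr18:22169589-22202528 on the plus strand. GATA4 lies at chr8:11676935-11760002 and GATA5 at chr20:62463497-62475995; their strands, plus and minus, were set from textbook knowledge. The windows overlap other annotated transcripts, among them the long noncoding RNAs GATA2-AS1, which reaches 3998 bp past the GATA2 start, GATA3-AS1, from 5117 to 8151 bp past the GATA3 start, and GATA6-AS1, which lies upstream of GATA6. A CCGG site in such an overlap belongs to both genes. The other listed start of GATA2 lies 4671 bp into the gene, and the most distant of GATA3 at 15124 bp, whereas GATA6 has 1 listed start.

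In gene bodies, taken from 2000 bp past the transcription start to the annotated end, 3 of the 5 GATA genes carried more 5mC in HepG2 than in H1ES, GATA5 carried less, and GATA3 did not pass the test (edgeR quasi-likelihood test on tags of 5mC against the other kinds, Benjamini-Hochberg adjusted over 13292 gene bodies). Over all gene bodies tested, 2.68% were higher and 52.7% lower in HepG2, with a median log2 odds ratio of -1.90. For the 5 GATA genes the median was 2.03. The bodies of GATA2 and GATA3 contain their alternative starts. No start is listed for GATA4 and GATA5, so an end of the annotated gene stood in. Starts inside their bodies could not be placed, and their start regions would miss them.

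The 5mC share of the GATA2 body was 22.2% of 117 tags and 20% of 80 tags in the H1ES libraries, and 83.9% of 93 tags and 75.0% of 72 tags in the HepG2 libraries. Both HepG2 libraries lay far above both H1ES libraries. The means were 21.1% ± 1.57 (SD, n = 2) and 79.4% ± 6.27, a log2 odds ratio of 3.87 with an edgeR adjusted p of 1.03e-22. In H1ES, 22 of the 13292 gene bodies had a lower mean 5mC share than GATA2, and 117 had a higher log2 odds ratio.

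The 5mC share of the GATA3 body was 46.2% of 117 tags and 41.8% of 98 tags in H1ES, and 47.8% of 92 tags and 41.5% of 94 tags in HepG2. The libraries of the lines overlapped. The means were 44.0% ± 3.05 (SD, n = 2) and 44.7% ± 4.48, and the log2 odds ratio of 0.026 had an edgeR adjusted p of 0.977. With the 5000 bp past the end included, the GATA3 value turned to -0.65, with an edgeR adjusted p of 0.0367, in a fit in which 57.5% of genes were lower and 2.85% higher.

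In the heart and endoderm branch, the GATA4 body was 71.5% of 330 tags and 65.4% of 246 tags 5mC in H1ES, and 91.1% of 248 tags and 88.9% of 216 tags in HepG2. For GATA6 the shares were 54.8% of 104 tags and 63.2% of 68 tags in H1ES, and 91.5% of 82 tags and 94.7% of 76 tags in HepG2. In both genes each HepG2 library lay above each H1ES library. The log2 odds ratio was 2.03 for GATA4, from means of 68.5% ± 4.29 and 90.0% ± 1.58 (SD, n = 2), with an edgeR adjusted p of 1.51e-14. It was 3.24 for GATA6, from 59.0% ± 5.96 and 93.1% ± 2.31, with an edgeR adjusted p of 1.09e-10.

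GATA5, which acts in heart and gut epithelium, had the opposite direction. Its body was 94.1% of 119 tags and 94.7% of 75 tags 5mC in H1ES, and 65.9% of 182 tags and 63.9% of 166 tags in HepG2. Here the H1ES libraries were the high ones, with no overlap. The means were 94.4% ± 0.39 and 64.9% ± 1.47 (SD, n = 2), a log2 odds ratio of -3.14 with an edgeR adjusted p of 3.59e-13. GATA5 was also the member with more tags in HepG2 than in H1ES, 660 against 365 in its window. The same held in the 100 kb on each side of that window, with 6236 tags in HepG2 and 3689 in H1ES. Around the other GATA genes, the 100 kb on each side held fewer tags in HepG2.

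**Figure D1:**
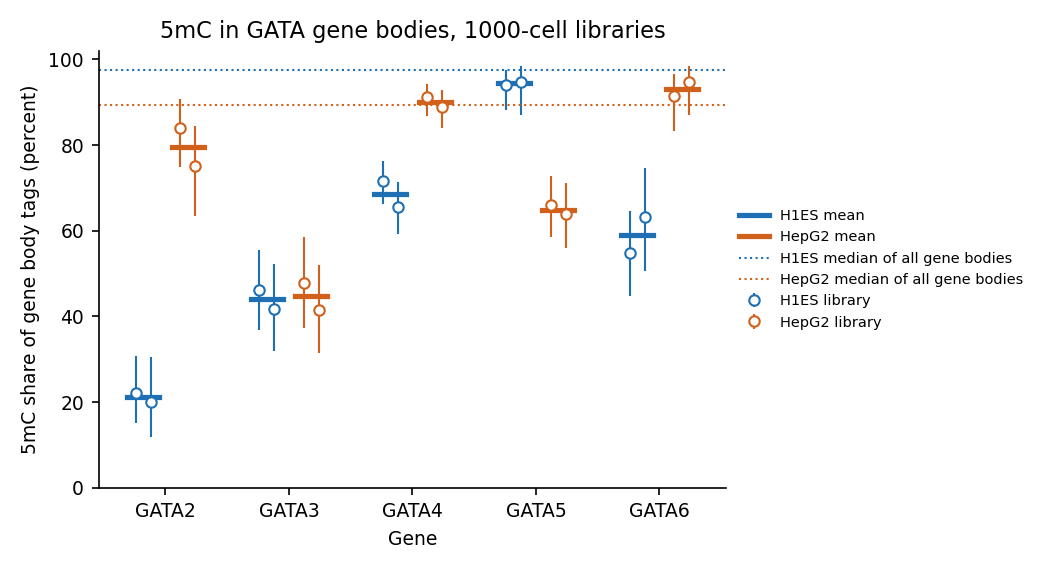
5mC share of gene body tags (percent, vertical axis) for each GATA gene (horizontal axis) in the libraries of 1000 cells. Open circles are single libraries with exact 95% intervals for counting error, thick lines are means of 2 libraries, and dotted lines are the medians over all 13292 gene bodies, 97.5% in H1ES and 89.3% in HepG2. HepG2 lies above H1ES in GATA2, GATA4 and GATA6 and below it in GATA5.

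Ordered by mean body 5mC in H1ES, the genes ran GATA2, GATA3, GATA6, GATA4 and GATA5. In HepG2 the order was GATA3, GATA5, GATA2, GATA4 and GATA6. The neighbours GATA6 and GATA4 were close in both lines: the highest GATA6 library in H1ES was at 63.2% and the lowest GATA4 library at 65.4%, and in HepG2 the highest GATA4 library was at 91.1% and the lowest GATA6 library at 91.5%, with SDs of 1.58 to 5.96. No test was made between genes. The libraries of the other neighbours lay further apart, for example 83.9% at most for GATA2 and 88.9% at least for GATA4 in HepG2.

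Compared with the other gene bodies, the GATA genes other than GATA5 had low 5mC in H1ES. The H1ES mean was under 70% in 215 gene bodies, GATA2, GATA3, GATA4 and GATA6 among them. Of those 215 gene bodies, 32.1% were higher and 20% lower in HepG2, beside 2.68% and 52.7% over all gene bodies. They were picked by the same H1ES values that enter the test, so a lean to higher in HepG2 is partly set by the choice. The choice of scale also bears on the counts. When odds were taken relative to each library's odds over the gene bodies tested, the median moved to 0.99. On this scale 34.2% of gene bodies were called higher and 24.3% lower. On that relative scale GATA2, GATA4 and GATA6 kept their direction, at 6.83, 5.00 and 6.22, GATA3 was called higher at 2.99 (edgeR adjusted p of 4.24e-18), and GATA5 was not called at -0.21 (edgeR adjusted p of 0.750).

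**Figure D2:**
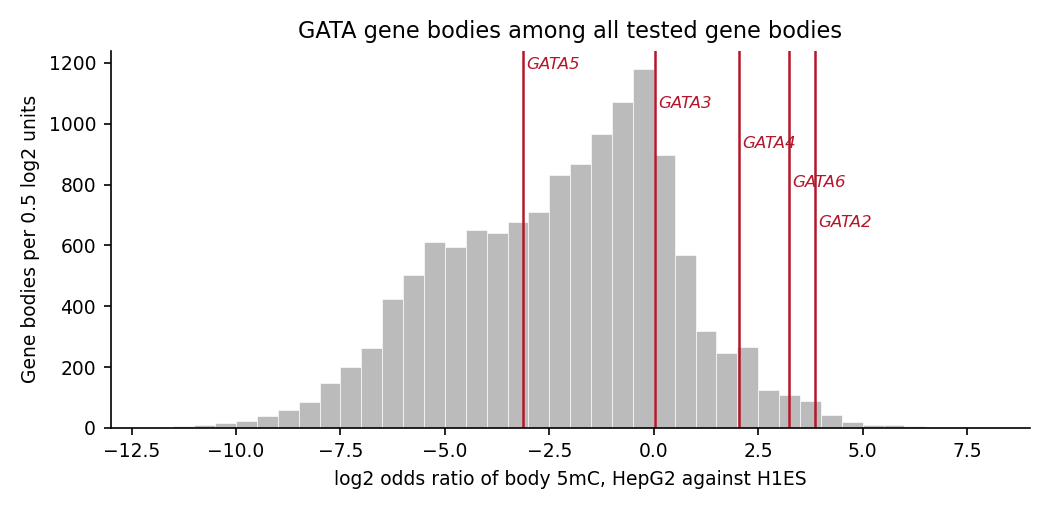
Number of gene bodies (vertical axis) by log2 odds ratio of 5mC in HepG2 against H1ES (horizontal axis, bins of 0.5) over 13292 gene bodies, 1 of which lies beyond the axis. Red lines mark the GATA genes: GATA5 at -3.14, left of the median of -1.90, and GATA3, GATA4, GATA6 and GATA2 to its right, from 0.026 to 3.87.

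The surroundings differed from the genes themselves. In the 100 kb on each side of the GATA windows, the H1ES mean 5mC share ran from 89.7% ± 2.05 (GATA4) to 97.0% ± 0.41 (GATA6), and the HepG2 mean from 49.0% ± 1.91 (GATA5) to 71.3% ± 2.27 (GATA4) (SD, n = 2). In H1ES, the bodies of GATA2, GATA3, GATA4 and GATA6 were therefore less methylated than the DNA around them, and that of GATA5 was not, at 94.4% against 91.4% ± 0.999. In HepG2, the bodies of GATA2, GATA4, GATA5 and GATA6 were more methylated than the DNA around them: for GATA2 it was 79.4% against 59.2% ± 1.09, and for GATA6 it was 93.1% against 61.9% ± 2.39. The GATA3 body was the exception in HepG2, at 44.7% against 62.0% ± 0.79. Over all gene bodies tested, the median 5mC share in HepG2 was 89.3%, beside 60.6% and 61.7% of all autosomal tags in its libraries. A body above its surroundings is therefore not particular to GATA genes in HepG2. How many of all gene bodies lie above or below their surroundings was not counted, and no test was made between bodies and surroundings.

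Bins of 5 kb along each window showed where the lines differed. In GATA2, the unmethylated share from 5000 to 9999 bp past the start was 90.1% and 88.9% in the H1ES libraries and 25.9% and 39.5% in the HepG2 libraries. In the next bin, it was 53.3% and 60.0% in H1ES and 0% in both HepG2 libraries, where 0 of 66 tags was unmethylated, which allows a share of up to 4.55%. Past the end of GATA2 the direction was the reverse, on few tags: from 15000 to 19999 bp, 4.76% of 21 pooled tags were unmethylated in H1ES and 52.4% of 21 in HepG2.

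The nearly equal body shares of GATA3 were made of differences in opposite directions. From 10000 to 14999 bp past the start, the unmethylated share was 85.7% in both H1ES libraries and 30.0% and 55.9% in the HepG2 libraries. From 25000 to 29999 bp it was 0% and 4.55% in H1ES and 59.1% and 53.8% in HepG2. In every bin up to 20 kb past the GATA3 start the pooled share was lower in HepG2, and in every bin beyond it was higher. Past the GATA3 end, 0 of 68 pooled tags was unmethylated in H1ES, which allows a share of up to 4.41%, against 54.0% of 50 tags in HepG2.

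In GATA4, the longest of the 5 genes, the low 5mC of H1ES was limited to the part nearer the start. From 30000 to 34999 bp past the start, 56.5% and 55.4% of tags were unmethylated in the H1ES libraries and 2.27% and 5.56% in the HepG2 libraries. From 45000 to 49999 bp, 0 of 81 pooled tags was unmethylated in H1ES, which allows up to 3.70%, and 2.17% of 46 in HepG2. Beyond that point the pooled share stayed at or under 22.5% in H1ES and 7.69% in HepG2. The 22.5% was from 65000 to 69999 bp, with 20.8% and 25% in the H1ES libraries and 8.33% and 0% in the HepG2 libraries.

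GATA6 differed most in its 5 kb after the start, where the unmethylated share was 96.6% and 85.7% in H1ES and 0% in both HepG2 libraries (0 of 20 tags, which allows up to 15%). From 5000 to 9999 bp it was 69.2% and 62.5% in H1ES and 8.70% and 0% in HepG2. From 20000 to 24999 bp the order was the reverse, at 5.00% and 9.52% in H1ES and 22.7% and 23.5% in HepG2. GATA5 was higher in HepG2 in all 5 bins by pooled share, for instance from 10000 to 14999 bp, with 1.22% and 2.17% in H1ES and 38.2% and 43.9% in HepG2. In the 5 kb after the GATA5 start the libraries overlapped, at 29.2% and 35.7% in H1ES and 50% and 33.3% in HepG2.

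**Figure D3:**
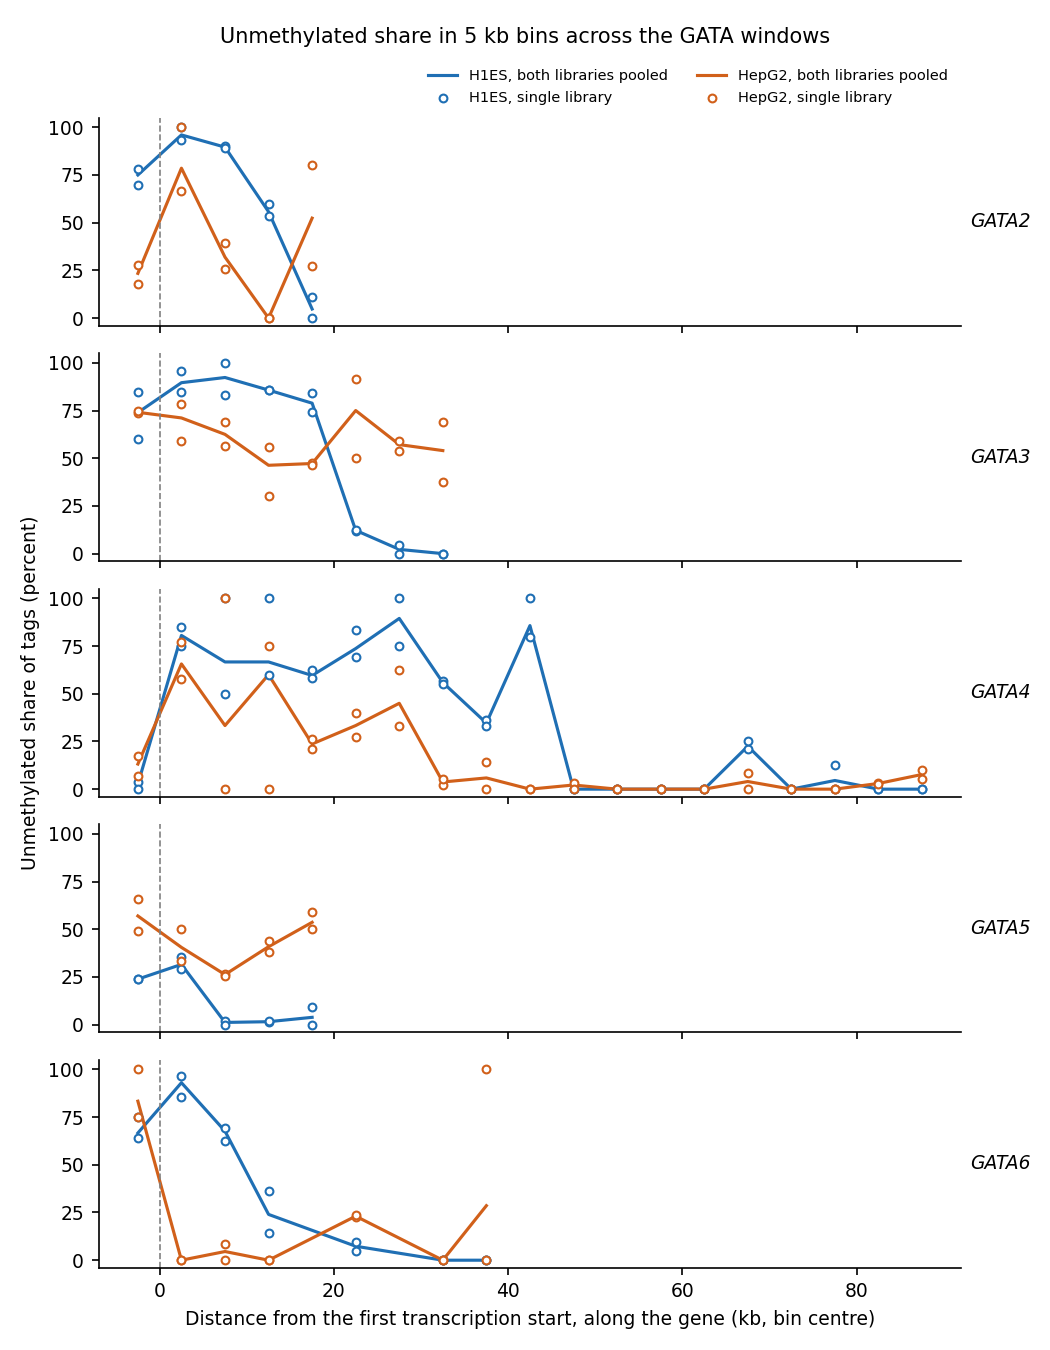
Unmethylated share of tags (percent, vertical axis) in bins of 5 kb by distance from the first transcription start along each gene (kb, horizontal axis), 1 panel per gene. Lines join the pooled shares of the libraries of 1000 cells and open circles are single libraries. In the 5 kb after the start, the pooled H1ES line lies above that of HepG2 in GATA2, GATA3, GATA4 and GATA6. The single libraries overlap there in GATA2 and GATA4. In all bins of GATA5, the pooled H1ES line lies below that of HepG2, but its single libraries overlap in the 5 kb after the start. The GATA5 start region, 2000 bp on each side of the start, has the reverse order. Bins with no tag are not drawn and lines run across them; the bins drawn hold from 4 to 208 pooled tags, so single points can rest on few tags.

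Start regions, 2000 bp on each side of the transcription start, were read less deeply, and none of the 5 genes had 20 tags in every library there. With at least 5 tags in every library, a minimum added after the depth was seen, 4 GATA genes could be tested among 14450 start regions, of which 34.3% had a higher and 3.52% a lower unmethylated share in HepG2. Of these 4 genes, GATA5 was lower and none was higher (edgeR, adjusted p under 0.05). Relative to each library's odds over the start regions tested, 22.5% of start regions were higher and 9.07% lower. GATA3 was then lower as well, at -2.32 (edgeR adjusted p of 0.0141). The GATA5 start region was 80.0% of 15 tags and 66.7% of 15 tags unmethylated in H1ES, and 33.3% of 30 tags and 10.5% of 57 tags in HepG2. The H1ES libraries lay above the HepG2 libraries, in contrast to the GATA5 body and upstream part. The log2 odds ratio was -3.54, with an edgeR adjusted p of 0.00358. It kept its sign without any 1 library, but the edgeR adjusted p was 0.198 without H1ES replicate 1, 0.139 without H1ES replicate 2 and 0.0671 without HepG2 replicate 2.

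The other start regions did not pass the test. GATA2 was 85.7% and 81.8% unmethylated in H1ES, and 53.8% of 13 tags and 100% of 7 tags in HepG2, with a log2 odds ratio of -1.17 (edgeR adjusted p of 0.485). GATA3 was 86.2% and 91.7% in H1ES and 81.6% and 64.7% in HepG2, with -1.26 (edgeR adjusted p of 0.220). GATA4 was 20% and 63.6% in H1ES and 63.2% and 57.1% in HepG2, with 1.32 (edgeR adjusted p of 0.311), and its libraries overlapped. GATA6 held 14 pooled tags in H1ES and 9 in HepG2, under the minimum, and with no minimum it was at -3.08 (edgeR adjusted p of 0.288). On unscaled odds no difference passed the test at this depth in GATA2, GATA3 and GATA4; the H1ES and HepG2 libraries of GATA3 did not overlap, and it passed on relative odds, as given above.

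Of the 5 alternative starts of GATA3, whose windows partly overlap, 4 had a lower unmethylated share in both HepG2 libraries than in both H1ES libraries. The same order was found at the first start. First and alternative refer to position along the gene only, and these data do not show which start is in use. How often the alternative starts of all genes have this order was not counted. At the start at 15124 bp, 87.5% of 24 tags and 72.2% of 18 tags were unmethylated in H1ES, and 29.4% of 17 tags and 38.9% of 18 tags in HepG2. At the start at 8308 bp, the shares were 100% of 8 tags and 80.0% of 5 tags in H1ES, and 58.3% of 12 tags and 45.5% of 11 tags in HepG2. At the start at 5903 bp, they were 100% and 83.3% in H1ES and 73.3% and 61.5% in HepG2, and at 9355 bp 66.7% of 3 tags and 100% of 2 tags in H1ES and 0% and 12.5% of 8 tags each in HepG2. The start at 4521 bp overlapped, at 100% and 87.5% in H1ES and 100% and 80.0% in HepG2. With windows around every listed start pooled, an alternative added after the data were seen, GATA3 had 20 tags in every library and was lower in HepG2, with a log2 odds ratio of -2.35 (edgeR adjusted p of 2.96e-07), among 5138 genes of which 4.79% were lower and 49.5% higher. For GATA2, the window at 4671 bp was 84.4% of 32 tags and 84.6% of 26 tags unmethylated in H1ES and 100% of 14 and of 18 tags in HepG2. Its pooled starts gave 0.47 (edgeR adjusted p of 0.624).

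Upstream parts, from 5000 to 2000 bp before the start, differed between genes. GATA5 was 15.7% of 51 tags and 0% of 17 tags unmethylated in H1ES, and 75.8% of 62 tags and 72.7% of 55 tags in HepG2. GATA2 was 79.4% of 34 tags and 76.2% of 21 tags in H1ES, and 29.0% of 31 tags and 8% of 25 tags in HepG2. The lines did not overlap in either gene, in opposite directions. Of 5383 upstream parts with at least 10 tags in every library, 65.4% were higher in HepG2 without overlap and 3.27% lower. No model was fitted to these shares.

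Crowding of CCGG sites, counted as 10 or more within 500 bp, marked the sites at which the genes shared a direction. Of the 807 sites, 389 were crowded. Pooled over the 5 genes, crowded sites were 79.9% and 82.5% unmethylated in the H1ES libraries and 32.7% and 28.1% in the HepG2 libraries, from 336 and 338 tags. The other sites were 26.3% and 28.2% in H1ES and 31.2% and 31.7% in HepG2, from 1595 and 1655 tags. Crowded sites thus lay far lower in HepG2. The pooled value of the other sites weights genes by their tags, of which GATA5 held 317 in H1ES and 570 in HepG2, and the genes did not share its direction.

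Each GATA gene had a lower mean at its crowded sites in HepG2, and the libraries of the lines overlapped in none of the 5. Of 1850 genes with at least 10 tags at crowded sites in every library, 25.4% were lower in HepG2 without overlap and 29.6% higher. The means were 84.9% ± 0.53 and 48.3% ± 1.02 for GATA2, 90.8% ± 5.50 and 38.3% ± 7.07 for GATA3, 91.8% ± 6.12 and 17.6% ± 12.02 for GATA4, 36.6% ± 7.83 and 17.1% ± 9.47 for GATA5, and 91.9% ± 7.41 and 15.5% ± 1.68 for GATA6 (H1ES, then HepG2, SD, n = 2). GATA5 stood out among the 5 by its low H1ES value. At the other sites the genes parted: GATA2 had 63.3% ± 2.56 and 9.78% ± 0.97, GATA4 21.5% ± 3.35 and 11.1% ± 1.05, and GATA6 23% ± 2.85 and 17.3% ± 6.56 with overlapping libraries. In contrast, GATA5 had 6.09% ± 1.04 and 46.3% ± 0.91, and GATA3 had 43.7% ± 4.69 and 63.6% ± 4.40. Of 18185 genes with at least 10 tags at their other sites in every library, 3.51% were lower in HepG2 without overlap and 82.2% higher. Depth goes with crowding, since 11.1% (GATA3) to 22.1% (GATA2) of the crowded sites had any tag in the libraries of 1000 cells, against 44.4% (GATA6) to 54.2% (GATA5) of the other sites; the part of depth in these shares was not tested.

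**Figure D4:**
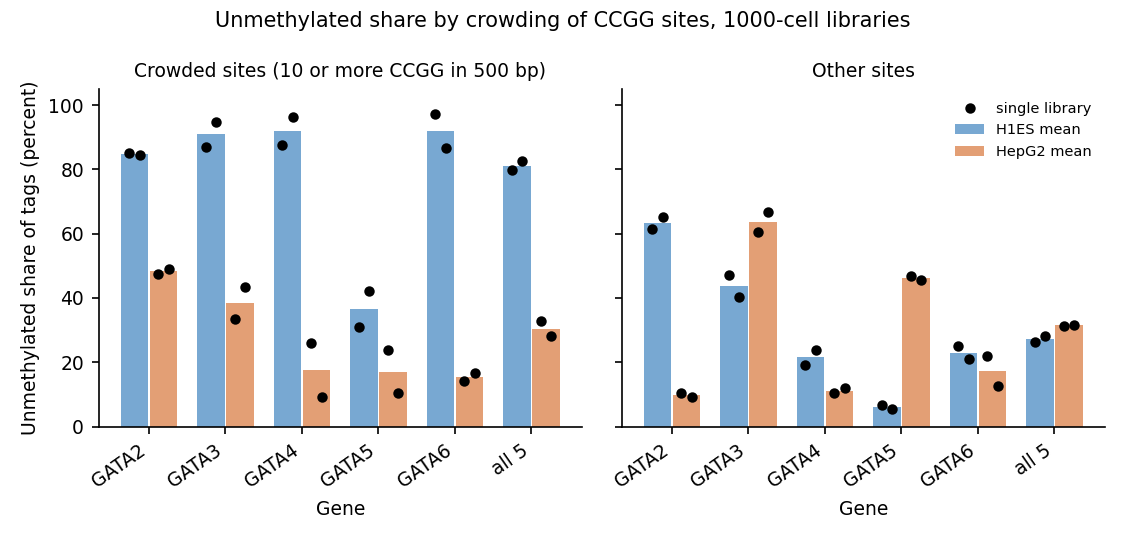
Unmethylated share of tags (percent, vertical axis) at crowded sites (left) and other sites (right) of each GATA gene and of all 5 pooled (horizontal axis). Bars are means of the 2 libraries of 1000 cells and dots are single libraries. At crowded sites every HepG2 bar is lower than its H1ES bar, whereas at other sites GATA3 and GATA5 are higher in HepG2.

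Single CCGG sites gave the finest view. At least 10 pooled tags in each line were found at 50 member sites. At 16 of these, both HepG2 libraries had a higher unmethylated share than both H1ES libraries, and at 12 a lower one, beside 50.2% and 1.31% of the 318248 such autosomal sites. Of the 16 sites that were higher, 14 lay in GATA5 and 2 in GATA3. The 12 that were lower were spread over the genes, with 5 of 6 in GATA2, 3 of 16 in GATA4, 2 of 6 in GATA6, 1 of 3 in GATA3 and 1 of 19 in GATA5.

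The GATA2 site at chr3:128483451, 9750 bp into the gene, had 7 unmethylated tags of 7 and 6 of 6 in H1ES, and 0 of 9 and 0 of 4 in HepG2. Upstream of GATA2, the site at chr3:128496527 had 9 of 10 and 2 of 3 in H1ES, and 0 of 7 and 0 of 3 in HepG2. In GATA6, the site at chr18:22178340, 8751 bp into the gene, had 6 of 8 and 3 of 3 in H1ES, and 0 of 5 and 0 of 8 in HepG2. These sites were mostly unmethylated in H1ES and had no unmethylated tag in HepG2, where 0 of 13 pooled tags at the first and the last of them allows a share of up to 23.1%. In GATA4, the largest such difference was at chr8:11711294, 34359 bp into the gene, with 7 of 15 and 3 of 10 in H1ES and 0 of 8 and 1 of 12 in HepG2.

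The reverse was seen past the end of GATA5, at chr20:62461831, with 0 of 13 and 0 of 3 in H1ES and 11 of 12 and 9 of 10 in HepG2. At chr10:8073069 in GATA3, 27736 bp from the start, it was 0 of 6 and 0 of 5 in H1ES and 5 of 6 and 4 of 5 in HepG2. GATA5 also held a site of the other direction near its start, at chr20:62474187, 1808 bp into the gene, with 6 of 7 and 3 of 3 in H1ES and 3 of 10 and 2 of 21 in HepG2. Both directions were therefore found within GATA3 and within GATA5.

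With 10 tags in every library, 2 member sites entered the test over 7212 autosomal sites, of which 36.8% were higher and 0.499% lower in HepG2 (7.25% and 1.57% on relative odds). At chr20:62465223 in the GATA5 body, 0 of 13 and 0 of 12 tags were unmethylated in H1ES and 4 of 14 and 6 of 18 in HepG2. The log2 odds ratio was 5.59 with an edgeR adjusted p of 0.0435, and the edgeR adjusted p ran from 0.0591 to 0.922 under the other settings. At chr10:8078831, past the end of GATA3, 0 of 10 and 0 of 20 tags were unmethylated in H1ES and 4 of 12 and 8 of 11 in HepG2, with an edgeR adjusted p of 0.0512. Under the other settings it ran from 0.00983 to 0.564, and the site passed without HepG2 replicate 1 and with a replicate block, at 0.016.

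5hmC was rare in the GATA windows and nearly all of it was in H1ES. Over whole windows, 15.8% of 17429 genes had a lower 5hmC share in HepG2 and 0% a higher one (edgeR, adjusted p under 0.05). Among the GATA genes, GATA3 and GATA5 were lower in HepG2 and the other 3 did not pass. GATA3 had 7 tags of 5hmC of 191 and 6 of 170 in H1ES, and 0 of 158 and 0 of 141 in HepG2, where a count of 0 over both libraries allows a share of up to 1.003% (edgeR adjusted p of 0.0129). GATA5 had 10 of 234 and 4 of 131 in H1ES, and 0 of 336 and 1 of 324 in HepG2 (edgeR adjusted p of 0.00140). In both genes each H1ES library was above each HepG2 library. This also held in GATA4 and GATA6 but not in GATA2, and how many of all genes have this order was not counted. Over all autosomal sites, 5hmC made up 1.7% and 1.52% of tags in the H1ES libraries and 0.22% and 0.28% in the HepG2 libraries.

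The pooled counts of the other genes had the same order but missed the threshold: 12 of 692 against 1 of 580 for GATA4 (edgeR adjusted p of 0.0604), 8 of 208 against 0 of 192 for GATA6 (0.0693), and 3 of 305 against 1 of 262 for GATA2 (0.631). The GATA3 call was lost without any 1 library, with edgeR adjusted p of 0.0624 to 0.213, and that of GATA5 was lost without H1ES replicate 1, at 0.214. Relative to each library's 5hmC odds over the windows tested, no GATA gene was called, and 0.0402% of genes were lower and 0.023% higher.

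In the single cells, tags were few and each line is 1 sample, so no test was made. H1ES cells held 757767 to 1543724 tags in all. HepG2 cells 1, 2 and 4 held 526207 to 611318, while cells 3 and 5 held 2455908 and 2434482 and stand apart in depth. The intervals drawn for single cells are exact Clopper-Pearson intervals and cover counting error only.

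The unmethylated share of the GATA2 window ran from 66.7% to 84.8% with a median of 75.0% over the H1ES cells, and from 15.8% to 29.8% with a median of 27.8% over the HepG2 cells. In the GATA5 window it ran from 3.70% to 21.7% with a median of 11.1% in H1ES and from 37.2% to 61.1% with a median of 40% in HepG2. The lines did not overlap in either gene. Of 9078 gene windows with at least 10 tags in every cell, 51.8% were higher in HepG2 with no overlap between cells and 0.231% lower. In GATA4 the range was 25.0% to 35% with a median of 30.6% in H1ES, and 13.04% to 19.4% with a median of 15.4% in HepG2, again with no overlap.

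The GATA3 window was 43.3% to 52.9% unmethylated, with a median of 49.2%, in H1ES cells, and 56.7% to 80.0%, with a median of 57.9%, in HepG2 cells. GATA6 was the gene whose cells overlapped, at 21.4% to 46.2% with a median of 39.4% in H1ES and 0% to 25.5% with a median of 17.5% in HepG2. Without HepG2 cells 3 and 5, the highest GATA6 value in HepG2 was 20%, just below the lowest H1ES cell at 21.4%. Those cells were the deepest of HepG2, and the GATA6 window held as few as 10 tags in a HepG2 cell. That gap therefore rests on few tags. The other 4 genes kept their order without overlap when cells 3 and 5 were left out. The single cells thus had the same direction in each gene as the libraries of 1000 cells.

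Regions within the windows could be read only from tags pooled over cells. In the GATA5 body, 0 of 94 tags from H1ES cells was unmethylated, which allows a share of up to 3.19%, against 34.8% of 204 tags from HepG2 cells. In the GATA5 start region the order was again the reverse, with 72.2% of 18 tags in H1ES and 28.0% of 50 in HepG2. In the GATA6 body it was 31.9% of 72 tags and 5.04% of 119. Tags of 5hmC in HepG2 cells were found in the GATA6 window alone, 1 in cell 3 and 2 in cell 5, whereas H1ES cells had 5 in GATA2, 4 in GATA3, 9 in GATA4, 4 in GATA5 and 1 in GATA6.

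**Figure D5:**
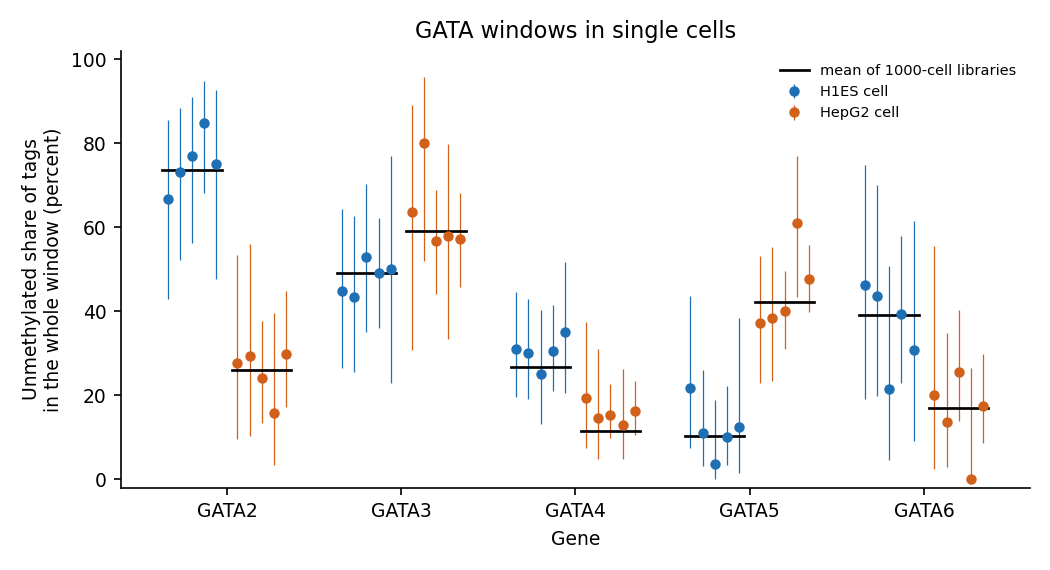
Unmethylated share of tags in the whole window of each GATA gene (percent, vertical axis) in single cells. Dots are cells with exact 95% intervals for counting error and black lines are means of the 2 libraries of 1000 cells of that line. H1ES cells lie above HepG2 cells in GATA2 and GATA4 and below them in GATA3 and GATA5, while the cells of the lines overlap in GATA6.

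Genes that work with GATA factors were looked at in lists by role, with the same tests over all genes. Of 11 cofactors with a tested body, 5 had less 5mC in HepG2 and 0 more, beside 52.7% lower and 2.68% higher over all gene bodies, and the median log2 odds ratio was -0.95 beside -1.90. ZFPM2, which binds GATA4 in heart and gonad, had 95.3% ± 2.88 in H1ES and 22.7% ± 2.01 in HepG2 (SD, n = 2), and LMO2, a bridging partner of GATA factors in blood, had 87.5% ± 0.50 and 20.05% ± 1.70. Of 8 further genes with a GATA-type zinc finger, with a median of -0.71, 0 were higher and 2 lower: TRPS1, a repressor of GATA targets, at 99.1% ± 0.30 and 30.6% ± 4.21, and MTA3, a corepressor subunit, at 96.8% ± 0.50 and 93.8% ± 0.0095.

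The counts in the next lists are likewise to be read beside the 52.7% of all gene bodies with less 5mC in HepG2 and the 2.68% with more. Of 6 heart genes with a tested body, all 6 had less 5mC in HepG2, with a median of -4.36, among them MYH6, a cardiac myosin, at 96.5% ± 1.13 and 27.3% ± 1.07, and the regulator MEF2C at 92.3% ± 2.60 and 38.3% ± 3.33. Of 6 endoderm and liver regulators, 1 was higher and 3 lower, with a median of -0.86. The one that was higher was ONECUT1, a liver and pancreas regulator, at 62.6% ± 2.64 and 89.2% ± 1.29. Of 13 blood and lymphoid genes, with a median of -3.61, 2 were higher and 9 lower, for example the blood regulator ERG at 94.8% ± 1.12 and 46.8% ± 1.70. Of 6 trophoblast and epithelial genes 2 were higher and 4 lower, with a median of -2.54, and TFAP2A, a trophoblast and neural crest regulator, was at 15.8% ± 1.89 and 43.9% ± 7.54. In start regions with at least 5 tags, of which 34.3% were higher and 3.52% lower over all genes, the counts of genes with a higher and a lower unmethylated share in HepG2 were 1 and 1 of 9 cofactors, 1 and 2 of 9 GATA-type zinc finger genes, and 3 and 3 of 10 heart genes. They were 3 and 3 of 14 endoderm and liver regulators, 5 and 1 of 14 blood and lymphoid genes, and 0 and 2 of 8 trophoblast and epithelial genes. For example, the start regions of TAL1, a blood regulator, and SOX17, an endoderm regulator, were lower in unmethylated share in HepG2, at 87.8% ± 4.45 and 38.2% ± 0.98 and at 89.9% ± 2.84 and 47.2% ± 15.8.

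The gene bodies most like each GATA gene, by Euclidean distance in 5mC share over the 4 libraries of 1000 cells, were CDX2 and NR2F1 for GATA2, at 14.5 and 15.4 percentage points. For GATA3 they were EFNA4-EFNA3 and PAX9, at 10.8 and 11.4. For GATA4 they were A1BG and NFIX, at 4.23 and 7.75, and for GATA6 TBX4 and EMP3, at 9.40 and 10.05. For GATA5 they were SLC36A1 and TJP1, at 1.33 and 1.44, the closest of the 5. The likeness rests on 4 values per gene and says nothing of function.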

How the data were processed

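CCGG sites were read with the DARESOME assay, in which HpaII, MspI and a glucosylation step give tags of 3 kinds, per the labels' protocols. The authors deposited, for each library and site, 3 fraction values (shares of the tag kinds) and a count of tags. The submitters' processing notes list hg38 and the tools Bowtie2 2.3.4.1, cutadapt 1.5 and UMI-tools 0.5.4; how tags were counted is not given in the sources used here. The tables have no header. The unmethylated column was told from the values, and the larger of the others was taken as 5mC, on which every 5hmC result rests. Fraction times count was whole within 0.00141, so tags were recovered by multiplication.

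Tags were summed over windows and tested with edgeR 4.0.16 (R 4.3.3) quasi-likelihood fits over all autosomal protein-coding genes of the RefSeq table or all autosomal sites, with 1 term per library and a term for kind by line, Benjamini-Hochberg adjusted, at least 20 tags per library (10 per site). The method was also run on simulated data with the same spread between libraries for all genes. That run does not test the p-values of single genes in the real data. Of 19122 genes, 15100 had a start in the promoter table; for 3711 the end with more CCGG sites, for 309 both ends and for 2 (GATA4, GATA5) the textbook strand stood in. The members have no start regions with 20 tags, so a minimum of 5 was added there. Alternatives were DESeq2 1.42.0, limma 3.58.1 on logit shares (0.5 tags added), other tag minimums and windows, odds relative to each library, 1 other kind as reference, a replicate block and leaving out each library. Sites were named where each line had at least 10 pooled tags and its libraries did not overlap the other line's, the 3 largest differences each way per gene; listed genes were the at most 4 with the smallest p. Members and lists were chosen with earlier results of these data known. Mouse libraries were not analysed here. Numbers of tags limit precision, and intervals and limits cover counting error only.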

Additional observations from a re-analysis of the deposited data

Results flagged for a closer look

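Among 20 groups of 5 cells, each gene's tags and unmethylated share in each line, 1 held a cell far from the others, and chance flags about 1 in 20 groups. The GATA6 window of H1ES cell 4 held 33 tags, beside 13 to 16 in the other 4 H1ES cells. Its gap to the next cell was 0.85 of the range. The unmethylated share of that cell, 39.4%, lay within the range of the other cells. H1ES cell 4 was also the deepest of the H1ES cells, with 1543724 tags in all.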

How the results depend on the processing

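GATA2, GATA4, GATA5 and GATA6 kept the direction of their body 5mC under every alternative run, and their calls too, except GATA5 on relative odds (-0.21). The adjusted p was far larger by limma on logit shares than by edgeR. By limma it was 0.0022 for GATA2, 0.0109 for GATA4, 0.0021 for GATA5 and 0.0042 for GATA6. GATA3, not called at 0.026, was called at 2.99 on relative odds and at -0.65 with 5000 bp past the end, and had the other sign without a call at -0.023 with 1 other kind as the reference, at -0.35 over the whole window (added after seeing the data), and from -0.16 to 0.21 with each library left out (below 0 without H1ES replicate 2 at -0.089 and without HepG2 replicate 1). Of 356 gene bodies higher and 7005 lower, 4544 and 3226 were called on relative odds, 234 higher by DESeq2, 220 higher with 1 other kind as the reference, 11166 lower over the whole window, and 227 to 308 higher without 1 library.

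For start regions, 1872 were higher and 185 lower at 20 tags. The counts were 4962 and 509 at 5 tags, 134 and 10 at 40 tags, 5287 and 528 with no minimum, 1067 and 522 on relative odds, 313 and 43 with 1000 bp windows and 20 and 2 with 500 bp, and 98 to 166 lower without 1 library. At 5 tags, 0 start regions passed in edgeR without H1ES replicate 1 or without H1ES replicate 2, although 4768 and 5264 had an unadjusted p under 0.05; DESeq2 called 4058 higher and 367 lower on all 4 libraries. GATA3 turned to 0.33 with 1000 bp windows, GATA2 to 0.47 over listed starts and to 3.56 without HepG2 replicate 1, and GATA4 to -0.13 without H1ES replicate 1. Over each library left out, the start value ranged from -2.16 to 3.56 for GATA2 and from -0.13 to 2.61 for GATA4.

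For 5hmC, 2748 genes were lower and 0 higher in edgeR, where 5101 had an unadjusted p under 0.05. There were 7 lower and 4 higher on relative odds, 1351 lower with 1 other kind as the reference, 1 higher at 40 tags and 2 by limma, and 784 to 1879 lower and 0 to 1 higher without 1 library. GATA2 turned to 1.16 on relative odds and ranged from -3.39 to 2.41 with each library left out, above 0 without H1ES replicate 1. Of 2653 sites higher and 36 lower at 10 tags, edgeR called 0 and 0 at 5 tags (71048 with an unadjusted p under 0.05), 85 and 0 at 20 tags, 523 and 113 on relative odds, and 0 to 4549 and 0 to 38 without 1 library (3780 and 6699 unadjusted without H1ES replicate 1 and 2). The causes were not tested; higher minimums and narrower windows test fewer genes.

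Same-numbered libraries had a correlation of 0.00824 in their deviations over 2 pairs, so the numbers are not shown to pair them. With a replicate block, 312 gene bodies were higher and 6816 lower, 1221 genes were lower in 5hmC, and the edgeR adjusted p for GATA3 5hmC was 0.194. The whole-window differences of GATA2, GATA3 and GATA6 moved to -58.4, 19.2 and -14.9 percentage points as means over sites. The start regions of the members held 3 to 57 tags per library, which limits what could be seen there.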
